A study of Mus musculus with 4 samples.

Results

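Oxidative phosphorylation genes encode the nuclear part of the mitochondrial respiratory chain and ATP synthase. They were taken here as all genes whose current symbol begins with Ndufa, Ndufb, Ndufc, Ndufs or Ndufv (complex I), Sdh (complex II), Uqcr (complex III), Cox4i, Cox5, Cox6, Cox7 or Cox8 (complex IV) or Atp5 (complex V, the ATP synthase), and whose probe was well above background on at least 1 of 4 arrays. By name, 121 probes of 95 genes qualified, out of 32301 genes and unnamed transcripts on the array, and 119 probes of 93 genes passed the background rule. The 2 that did not pass were Cox7b2 and Cox8c, which were not well above background on any array. Of the 93 genes, 76 encode subunits made in all tissues (36 of complex I, 4 of complex II, 8 of complex III, 11 of complex IV and 17 of complex V), 11 encode assembly factors of complexes I and II, 5 encode tissue-restricted forms of complex IV subunits, and Cox7a2l encodes a factor that joins complexes III and IV. Complex IV here includes Ndufa4, which was named as a complex I gene. The markers Ndufs1, Uqcrc1 and Cox4i1 belong to the 93 by name, so their detection does not test the label. They were well above background on all 4 arrays, and 92 of the 93 genes were, the exception being Cox4i2. Of all 20553 genes well above background on at least 1 array, 16287 were so on all 4.

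Tumors and non-tumor lung of female ICR mice, aged 6 months, were compared between animals with a working gene for the transcription factor Nrf2 (Nfe2l2), called Nrf2+/+, and animals without it, called Nrf2-/-. All 4 groups had received urethane (ethyl carbamate, a carcinogen that gives lung tumors in mice) at 1 g/kg intraperitoneally, 16 weeks earlier by the design text and 4 months by the sample labels, so no group was untreated. From each genotype there was a group of non-tumor lung and a group of tumors measuring 1.0 to 1.5 mm, which made 4 groups. Each group was 1 pool of RNA from 8 mice on 1 single-colour array, so nothing was replicated, a pair of arrays can give no p-value, and every value describes a pool of whole tissue. How the Nrf2 allele was made, and whether the same animals gave tumor and lung, is not given in the sources used here.

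In the chain, complex I oxidises NADH and complex II oxidises succinate, both passing electrons through ubiquinone to complex III, and cytochrome c carries them on to complex IV, which reduces oxygen. Complexes I, III and IV pump protons across the inner mitochondrial membrane, and complex V lets them back to make ATP. Most subunits are encoded in the nucleus and the catalytic remainder in mitochondrial DNA. Several subunits of complex IV have a second form made mainly in heart and skeletal muscle: Cox6a2, Cox7a1 and Cox8b in place of Cox6a1, Cox7a2 and Cox8a. In rodents Cox7a1 and Cox8b are also made in brown fat. Many nuclear genes of the chain have promoters bound by nuclear respiratory factor 1, the product of Nrf1, which is unrelated to Nrf2 (Nfe2l2) despite the name, and by the ETS-family factor GABP.

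Because the muscle forms Cox8b and Cox7a1 differed between tumor and lung in the opposite direction to their ubiquitous partners, promoters of complex IV forms are shown. They are given where the reference table held them. RefSeq windows of 250 bases before the transcription start (GRCm38.p6, 5′ to 3′ on the gene's strand) were found for 78 of the 93 genes, as 83 windows; Cox6a2 had none. The motifs were chosen after the expression values were seen, and both strands were searched. The Cox6a1 window (chr5:115348959-115349208, minus strand) is shown as a ubiquitous subunit with both NRF1 and ETS letters, with capitals for an NRF1 match (GCGCANGCGC) at 162 and at 117 bases before the start and for an ETS match (CCGGAAG, here on the other strand) at 16 bases. The Cox8b window (chr7:140900447-140900696, minus strand) stands for the muscle forms, with capitals for an E-box of the type bound by muscle regulators (CAGCTG) 19 bases before the start. The Cox7a1 window (chr7:30183921-30184170, plus strand) held no match to any of the motifs searched, and neither did the windows of the ubiquitous forms Cox7a2 and Cox8a.
Cox6a1: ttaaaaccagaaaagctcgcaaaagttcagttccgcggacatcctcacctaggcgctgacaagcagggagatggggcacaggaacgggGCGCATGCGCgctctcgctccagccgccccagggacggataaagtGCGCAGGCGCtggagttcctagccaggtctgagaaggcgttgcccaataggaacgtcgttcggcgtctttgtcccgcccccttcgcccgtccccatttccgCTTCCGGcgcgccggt
Cox8b: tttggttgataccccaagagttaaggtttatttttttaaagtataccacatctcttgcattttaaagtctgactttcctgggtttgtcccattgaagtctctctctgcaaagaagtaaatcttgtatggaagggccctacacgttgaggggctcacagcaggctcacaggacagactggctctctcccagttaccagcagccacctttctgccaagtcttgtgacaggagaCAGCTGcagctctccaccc
Cox7a1: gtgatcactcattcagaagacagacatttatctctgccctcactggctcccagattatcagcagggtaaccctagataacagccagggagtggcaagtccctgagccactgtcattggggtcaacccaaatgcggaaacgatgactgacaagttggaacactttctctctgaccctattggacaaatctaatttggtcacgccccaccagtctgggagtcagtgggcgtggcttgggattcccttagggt
A match to the NRF1 letters stood in 14 of the 69 windows of ubiquitous subunits (20.3%), against 6.85% of 14448 windows of all genes measured and 3.74% of all 32851 windows. For the ETS letters the shares were 12 of 69 (17.4%), 11.6% and 6.91%. The muscle-type E-box stood in 7.25% of subunit windows and in 12.3% of windows of all genes measured, and the MEF2 letters (CTANNNNTAG) in 1.45% and 2.87%. The TATA letters (TATAAA) stood in 10.1% and 7.88%. The subunit windows had a median GC content of 57.6%, close to the 58.8% of windows of all genes measured. Of 64 subunits with a window, Cox6a1, Atp5h and Sdhd alone held both the NRF1 and the ETS letters. The 13 subunits with an NRF1 match had a median tumor difference of 0.49 on the log2 scale in Nrf2+/+ and 0.33 in Nrf2-/- mice, beside 0.54 and 0.37 for the 51 without one. The letters describe these windows and do not show binding.

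The targeted gene fitted the labels: with the gene intact, Nfe2l2 read 7913 in lung and 7478 in tumor, and in Nrf2-/- mice it read 5.13 and 6.94 and was not well above background. The share of spots well above background ranged from 54.2% to 63.5% between arrays, and both tumor arrays were at the low end. The upper signal of the arrays differed with tissue as well: the 75th percentile of all signals was 760 (Nrf2+/+) and 742 (Nrf2-/-) intensity units for lung but 555 and 584 for tumor. Values are therefore given as raw signal and, for comparisons, as log2 of the signal relative to this percentile of its own array. The scanner software's own error of such a difference had a median of 0.20 over the 93 genes and does not cover differences between animals. The array of Nrf2+/+ lung was alone on its slide, apart from the other 3, so slide and group cannot be told apart for it.

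In Nrf2+/+ mice the ubiquitous subunits were higher in tumor than in non-tumor lung, together and by a modest amount, relative to each array's 75th percentile. Of 76 subunits 75 had a positive difference, with a median of 0.53 on the log2 scale, and over all 93 genes the median was 0.49 with 86 above 0. The median of all 19913 genes measured in either tissue was -0.03, and that of the 4479 genes at least as bright as the upper 75% of these genes was 0.22, a comparison added after the values were seen. The oxidative phosphorylation genes were also more tightly grouped, with a median absolute deviation (scaled as an SD) of 0.22. It was 0.71 for all genes and 0.50 for the genes of like brightness. At a 2-fold mark, 1 of the 93 was higher (Cox4i2), beside 8.08% of all genes, and 3 were lower (Cox8b, Ndufs8 and Cox7a1), beside 15.3% of all genes. Of the 4479 genes of like brightness 371 were higher and 293 lower. Above 0 were 2979 of these 4479 and 9534 of all 19913 genes.

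The size of this difference depended on the scaling. In raw signal the subunits hardly differed: the median log2 ratio of tumor to non-tumor lung was 0.08, with 51 of 76 above 0. Scaled on 7 spike-in probes, RNAs added in known amounts at labelling, the median over the 93 genes was 0.29 with 72 of 76 subunits above 0, while the median of all genes moved to -0.23. The gap between the 93 genes and all genes was 0.53, which scalings that shift a whole array cannot change, and it was 0.30 under quantile normalization and 0.38 under normexp background correction.

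In Nrf2-/- mice the same comparison gave a smaller difference of the same direction. The median over the 93 genes was 0.31 with 87 above 0, and that of all 19426 genes was -0.03, or 0.13 among the genes of like brightness. Of the subunits 74 of 76 were above 0. At the 2-fold mark 1 gene was higher (Cox4i2), beside 5.43% of all genes, and 2 were lower (Cox8b and Cox7a1), beside 9.12%. Of the 4479 genes of like brightness 199 were higher and 108 lower. Above 0 were 2850 of these 4479 and 9132 of all 19426 genes. Under spike-in scaling the median was 0.04 and only 54 of 76 subunits remained above 0, and in raw signal the median of the subunits was 0.01. The differences of the 93 genes in the 2 genotypes, which share no array, had a Pearson correlation of 0.78 and a Spearman correlation of 0.77 across genes; genes are not independent replicates, and all were read on the same arrays.

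**Figure D1:**
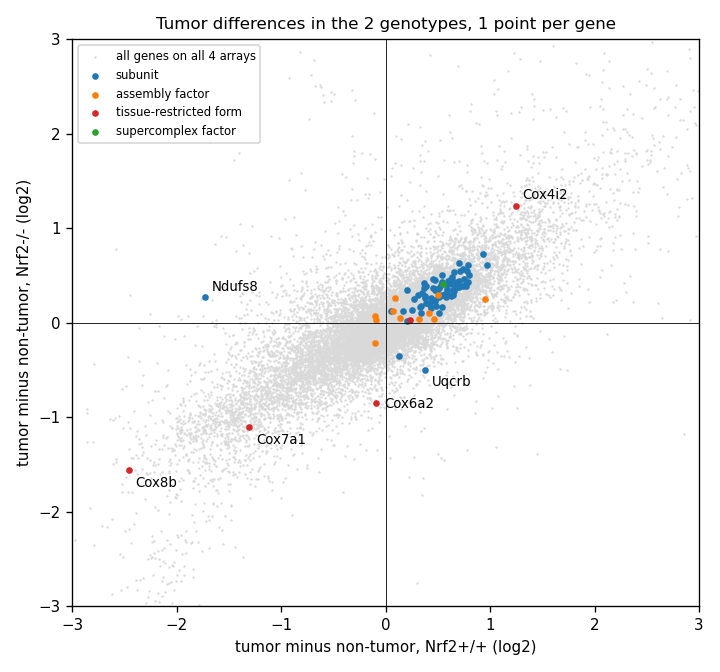
Difference between tumor and non-tumor lung (log2, relative to each array's 75th percentile) in Nrf2+/+ mice (horizontal) and Nrf2-/- mice (vertical), 1 point per gene, with all genes well above background on all 4 arrays in grey (a few lie beyond the axes). Blue ubiquitous subunits form a compact cloud above 0 on both axes, except Ndufs8 and 2 others, while Cox8b and Cox7a1 lie below 0 on both.

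Between genotypes, the subunits were slightly higher in Nrf2-/- than in Nrf2+/+ non-tumor lung, and in tumor they were evenly split under the percentile scaling. In non-tumor lung the median over the 93 genes was 0.18 with 81 above 0, against 0.02 for all 20190 genes and 0.10 for the genes of like brightness. None reached the 2-fold mark in either direction, beside 3.04% of all genes higher and 4.61% lower. Of the 4479 genes of like brightness only 40 were higher and 23 lower, so few would be looked for among 93. Above 0 were 3068 of these 4479 and 10518 of all 20190 genes. In tumor the median was -0.00 with 46 above 0, against -0.03 for all 17824 genes, and Ndufs8 alone reached the mark as higher, beside 4.29% of all genes, with none lower, beside 3.67%. Of the 4479 genes of like brightness 58 were higher and 35 lower in this comparison. Above 0 were 2352 of these 4479 and 8253 of all 17824 genes. The even split in tumor depended on the scaling: of the 76 subunits 40 were above 0 as reported, 22 under quantile normalization and 11 under spike-in scaling. The median of 0.18 in non-tumor lung was itself within the software error of 0.20 for a single gene. The tumor comparison in Nrf2+/+ mice and the genotype comparison in lung share the array of Nrf2+/+ lung, the one alone on its slide, and the part of that array in both medians was not tested.

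A fit of all 4 arrays with terms for tissue and genotype (limma, with Benjamini-Hochberg adjustment over 20553 genes) let one genotype stand in for a replicate of the other, and left 1 residual degree of freedom. No gene passed an adjusted p of 0.05 for tissue (0% of all genes) or for genotype (0%). At an unadjusted p below 0.05 in limma, the tissue term held 27 of the 93 genes (29.0%), 25 of them higher in tumor, beside 6095 of all genes (29.7%), so the share matched that of all genes. The genotype term held 3 of the 93 (Uqcrh, Cox4i2 and Ndufs3), or 3.23%, beside 1910 of all genes (9.29%). The smallest adjusted p-values among the 93 in limma were those of Cox4i2 (0.0715), Cox7a1 (0.0731) and Cox8b (0.0775) for tissue.

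Complex I, the NADH dehydrogenase, had a median tumor difference of 0.48 in Nrf2+/+ and 0.29 in Nrf2-/- mice over its 36 subunits, with 35 above 0 in each. Its 7 nuclear core subunits, which carry the flavin and the iron-sulfur clusters, had medians of 0.33 and 0.18, and its 29 supernumerary subunits, which surround the core, 0.49 and 0.33. The marker Ndufs1, the largest core subunit, had signals of 9695 and 9626 in Nrf2+/+ lung and tumor and of 9699 and 9002 in Nrf2-/- lung and tumor. These are nearly flat, and the differences of 0.44 and 0.24 for Ndufs1 came with the lower percentile of the tumor arrays. Among supernumerary subunits Ndufa2 had the largest difference in both genotypes, with signals of 13206 and 16700 in Nrf2+/+ lung and tumor and of 15291 and 18418 in Nrf2-/- lung and tumor, or 0.79 and 0.61.

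Ndufs8, a core subunit that holds iron-sulfur clusters, did not follow the rest. Its signal was 516 and 114 in Nrf2+/+ lung and tumor but 568 and 539 in Nrf2-/- lung and tumor. The Nrf2+/+ tumor array alone was low, giving a tumor difference of -1.73 in Nrf2+/+ and 0.27 in Nrf2-/- mice, and a genotype difference in tumor of 2.17. Ndufs8 had 1 probe, and this reading rests on that probe on 1 array. Ndufs3, a further core subunit, was read by 1 probe as well, and its raw signal separated the genotypes more than the tissues: 3629 and 3779 in Nrf2+/+ lung and tumor against 5806 and 5905 in Nrf2-/- lung and tumor. Both Nrf2-/- arrays lay above both Nrf2+/+ arrays, by 0.71 in lung and 0.57 in tumor, with an adjusted p for genotype of 0.46 in limma. Its scaled tumor differences were 0.51 and 0.37, near those of the other subunits. Ndufs3 lies on chromosome 2, as does Nfe2l2, with 293 protein-coding genes between them in the RefSeq order. Of the 8 oxidative phosphorylation genes on that chromosome the nearest, Atp5g3, with 14 genes between, differed by 0.30 in lung and -0.11 in tumor. Whether the region around the altered gene differs between the genotypes was not tested.

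The 11 assembly factors, which build complexes I and II without staying in them, had smaller tumor differences than the subunits, with medians of 0.14 in Nrf2+/+ and 0.07 in Nrf2-/- mice, which became -0.06 and -0.20 under spike-in scaling. In Nrf2+/+ mice quantile normalization gave the assembly factors 0.30, the same as the median over the 93 genes, and normexp background correction also gave them 0.30, beside 0.47, so this gap depended on the processing. The list was spread in Nrf2+/+ mice, with 8 of 11 above 0. Sdhaf4, Ndufaf1 and Ndufaf2 had 0.50, 0.47 and 0.42, while Ndufaf3 and Sdhaf2 had -0.09 and -0.10. Ndufaf6 had the largest difference there, with signals of 525 and 743 in Nrf2+/+ lung and tumor (0.95). In Nrf2-/- lung and tumor it read 549 and 514 (0.25). Only the Nrf2+/+ tumor was high, and the genotype difference in tumor was -0.61. Ndufaf4 was nearly unmoved at -0.10 and -0.22. Ndufaf5, with low signals of 53.8 and 39.9 in Nrf2+/+ and Nrf2-/- lung, differed by -0.40 there with a software error of 0.31.

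Complex II, the succinate dehydrogenase of the citric acid cycle, had the lowest median tumor difference of the 5 complexes under the percentile scaling. In non-tumor lung the sign of its median genotype difference was opposite to that of the others. Its 4 subunits had a median tumor difference of 0.18 in Nrf2+/+ and 0.24 in Nrf2-/- mice, and under spike-in scaling these medians became -0.01 and -0.03. The 4 were not alike: in Nrf2+/+ mice Sdhd had 0.47, and the 2 probes of Sdha gave 0.17 and -0.28. In Nrf2-/- mice the order of complexes depended on the scaling, since quantile normalization put complex II at 0.18 and complex I at 0.14. In non-tumor lung its median genotype difference was -0.19, whereas complexes I, III, IV and V had 0.18, 0.19, 0.24 and 0.22. Sdhb, the iron-sulfur subunit, had signals of 3318 and 2784 in Nrf2+/+ and Nrf2-/- lung and of 2508 and 2395 in tumor. Sdhc, a membrane anchor, had 4420 and 3773 in lung and 3717 and 3769 in tumor. On the scaled values Sdhb and Sdhc were 0.22 and 0.19 lower in Nrf2-/- than in Nrf2+/+ lung, which was within or near the software error. Sdha differed there by -0.18 on the probe used and by -0.49 on the other, and Sdhd by 0.02. The gap between complexes II and I in that comparison was -0.37, which scalings that shift a whole array cannot change. It was -0.34 under quantile normalization, -0.46 under normexp background correction and -0.40 with all probes of a gene averaged.

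**Figure D2:**
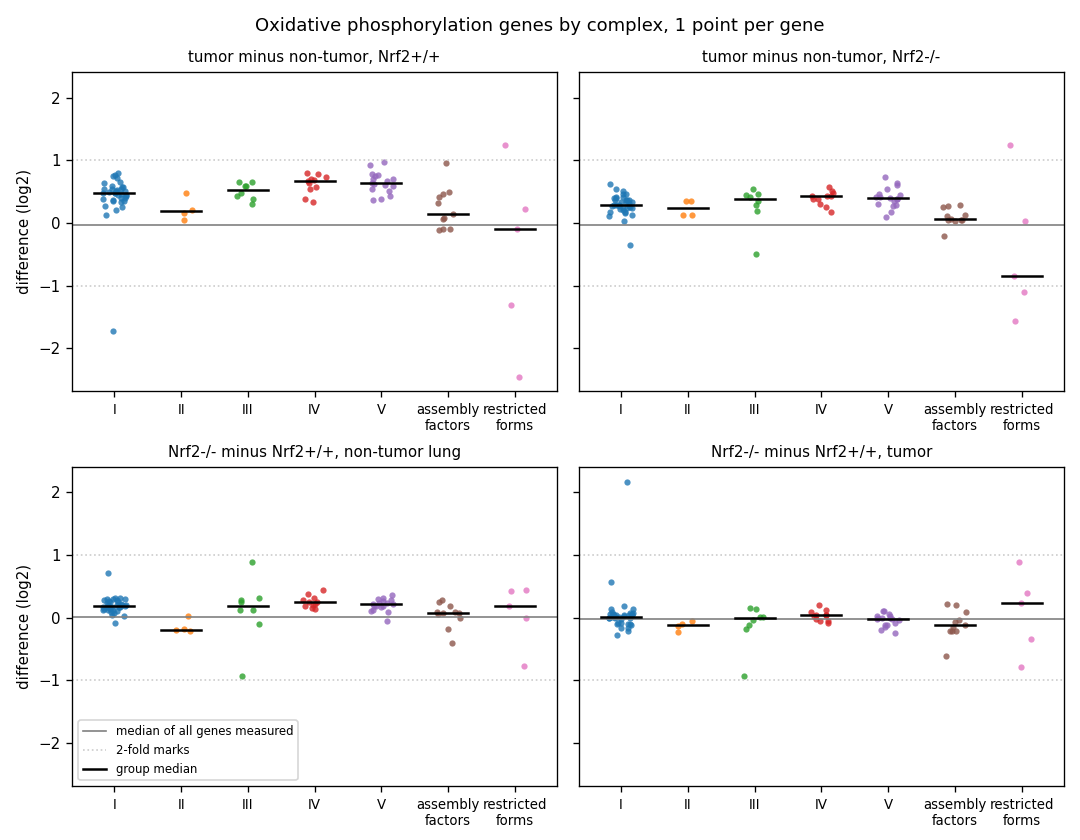
Differences of the oxidative phosphorylation genes in the 4 comparisons (log2, 1 point per gene), by complex, with group medians as black bars, the median of all genes measured as a grey line and dotted lines at 2-fold; Cox7a2l is not drawn. In the upper panels (tumor against non-tumor lung) the medians of all 5 complexes lie above the grey line, that of complex II nearest to it, and the restricted forms spread from -2.46 to 1.25 in Nrf2+/+ mice.

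Complex III, which passes electrons from ubiquinol to cytochrome c, had medians of 0.53 in Nrf2+/+ and 0.38 in Nrf2-/- mice. The marker Uqcrc1, a core protein, had signals of 21078 and 20727 in Nrf2+/+ lung and tumor and of 24498 and 21942 in Nrf2-/- lung and tumor, or differences of 0.43 and 0.19. The hinge protein gene Uqcrh had the largest genotype difference of the 8, but by only 1 of its 2 probes. The brighter probe, which stood for the gene, read 44133 and 44666 in Nrf2+/+ lung and tumor and 22742 and 24604 in Nrf2-/- lung and tumor, or -0.92 and -0.93. The other probe read 27639 and 32233 in Nrf2+/+ and 29414 and 33617 in Nrf2-/- lung and tumor, or 0.12 and -0.01. The probes target the same transcript accession, so the genotype difference of Uqcrh is uncertain, and its adjusted p was 0.37 in limma. Uqcrb, a subunit that binds ubiquinone, was read by 1 probe at 568 and 540 in Nrf2+/+ lung and tumor and at 1026 and 572 in Nrf2-/- lung and tumor. Only the Nrf2-/- lung was high, which gave tumor differences of 0.38 and -0.50 and a genotype difference in lung of 0.89.

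**Figure D3:**
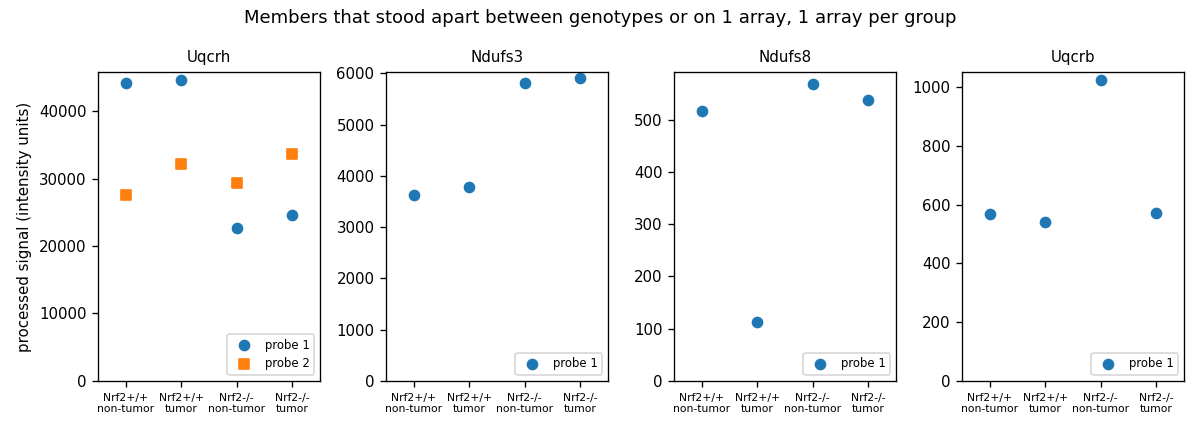
Processed signal (intensity units, linear axis from 0) of 4 genes on the 4 arrays, 1 point per probe and array. The first Uqcrh probe and the Ndufs3 probe separate the genotypes, the second Uqcrh probe does not, Ndufs8 is low at 114 in Nrf2+/+ tumor only, and Uqcrb is high at 1026 in Nrf2-/- non-tumor lung only.

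Complex IV, cytochrome c oxidase, had the highest median tumor difference of the 5 complexes under this scaling, at 0.67 in Nrf2+/+ and 0.43 in Nrf2-/- mice over its 11 ubiquitous subunits, all of them above 0 in both. Complex V followed in Nrf2+/+ with 0.64 and had 0.40 in Nrf2-/- mice. The marker Cox4i1, the general form of subunit 4, had signals of 47846 and 50711 in Nrf2+/+ lung and tumor and of 51664 and 54765 in Nrf2-/- lung and tumor. These gave differences of 0.54 and 0.43. Cox7b had the largest difference in Nrf2+/+ mice at 0.80, and Cox7c reached 0.79 there and was 0.45 higher in Nrf2-/- than in Nrf2+/+ lung.

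Of the muscle forms of complex IV, Cox8b and Cox7a1 went the other way. Cox8b had signals of 1658 and 1612 in Nrf2+/+ and Nrf2-/- non-tumor lung and of 221 and 430 in Nrf2+/+ and Nrf2-/- tumor. Both lung arrays were far above both tumor arrays, and the tumor differences were -2.46 and -1.56. Its ubiquitous partner Cox8a differed by 0.63 and 0.48, so that relative to the partner Cox8b was lower in tumor by a factor of 8.52 in Nrf2+/+ and 4.12 in Nrf2-/- mice. In tumor Cox8b was 0.89 higher in Nrf2-/- than in Nrf2+/+ mice, with the software error at 0.21.

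Cox7a1 showed the same order. Its signals were 3163 and 3524 in Nrf2+/+ and Nrf2-/- lung and 934 and 1293 in the tumors, again without overlap between tissues. The tumor differences were -1.31 and -1.10, and its partner Cox7a2 differed by 0.67 and 0.44. The ratio of partner to muscle form was thus higher in tumor by a factor of 3.92 in Nrf2+/+ and 2.90 in Nrf2-/- mice.

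Cox6a2 was less clear. Its signals were 4630 and 6063 in Nrf2+/+ and Nrf2-/- lung and 3172 and 2644 in the tumors, which gave differences of -0.09 and -0.85. The first was within the software error, and it became 0.20 when arrays were scaled on their medians. Relative to Cox6a1, which differed by 0.34 and 0.18, Cox6a2 was lower in tumor by a factor of 1.35 in Nrf2+/+ and 2.04 in Nrf2-/- mice. The error of these differences from a partner was 0.29 on the log2 scale, and they do not change with a scaling that shifts whole arrays. The 3 muscle forms thus ranged from little difference (Cox6a2 in Nrf2+/+) to a large one (Cox8b), and none passed the adjusted test.

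**Figure D4:**
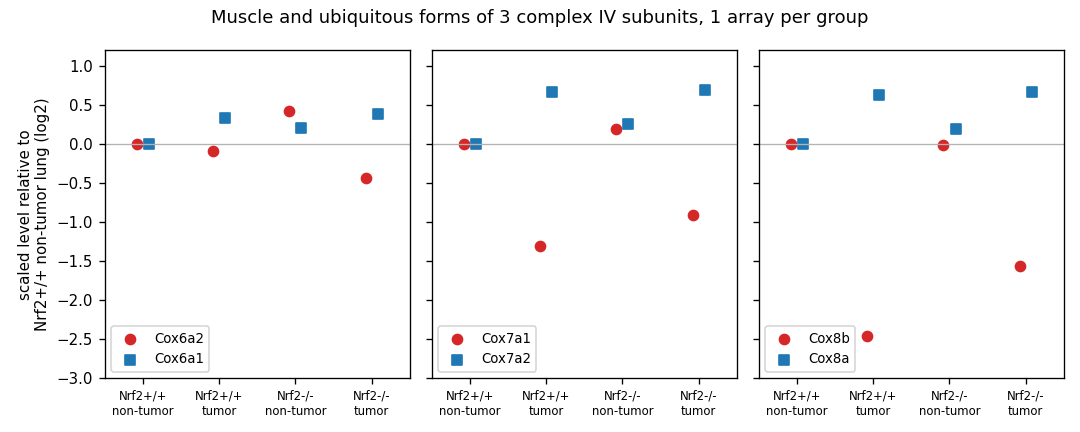
Scaled level of each gene relative to its own level in Nrf2+/+ non-tumor lung (log2), for 3 muscle forms of complex IV subunits (red circles) and their ubiquitous partners (blue squares), 1 array per group. Cox7a1 and Cox8b lie well below 0 in both tumor pools, Cox6a2 is lowest in Nrf2-/- tumor, and the partners sit above 0.

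Many markers of cells that could carry the muscle forms were lower in tumor, and so were Cox8b and Cox7a1. Cox6a2 differed by only -0.09 in Nrf2+/+ mice. Of 20 cardiac and striated muscle markers, all measured, 17 were at least 2-fold lower in tumor in each genotype, with medians of -2.79 in Nrf2+/+ and -2.46 in Nrf2-/- mice. Among them were Ckmt2, the muscle mitochondrial creatine kinase (-3.74 and -2.73), and Mb, myoglobin (-3.07 and -2.34). The list's summed signal did not show this, at 67804 and 93710 in Nrf2+/+ and Nrf2-/- lung and 91208 and 111340 in the tumors, which held Myh7, the slow myosin heavy chain, at 20346 and 39612 in the lungs and 81325 and 98289 in the tumors. Nppa, atrial natriuretic peptide, was outside the pattern in Nrf2-/- mice, with 64.0 and 30.2 in lung and 26.2 and 1481 in Nrf2+/+ and Nrf2-/- tumor. Myh6, the fast cardiac myosin heavy chain, differed by 0.11 and -0.17. Of 12 skeletal muscle markers 10 were measured, with medians of -0.79 and -0.82. Of 6 brown fat markers, Ucp1, Elovl3 and Zic1 were not well above background on any array, while Cidea (-1.85 and -2.32) and Dio2 (-1.34 and -1.08) were lower in tumor and Ppargc1a differed by 0.37 and -0.33. In whole tissue, fewer cells of a type and less RNA per cell cannot be told apart, and the part of these cells in the values of Cox8b, Cox7a1 and Cox6a2 was not tested.

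Other cell types differed between the tissues as well. Of 11 alveolar type 2 markers 8 were at least 2-fold higher in Nrf2+/+ tumor and 5 in Nrf2-/- tumor, with medians of 1.18 and 0.89 and none lower. Their summed signal was 567960 and 661510 in Nrf2+/+ and Nrf2-/- lung and 769390 and 853230 in the tumors. Markers of ciliated cells (9 of 9 at least 2-fold lower in each genotype, medians -1.99 and -2.42), endothelium (8 and 6 of 10 lower, medians -1.40 and -1.05), smooth muscle and pericytes (4 and 5 of 13 lower, medians -0.85 and -0.80) and alveolar type 1 cells (4 and 1 of 7 lower, medians -1.16 and -0.53) had medians below 0. The pericyte gene Rgs5 went against its list, at 3.21 and 2.74, and so did the type 1 gene Aqp5, at 0.70 and 0.64. Macrophage markers had medians of 0.31 and 0.44 but were split in Nrf2+/+ mice, with 2 of 9 at least 2-fold higher in tumor and 2 lower. White fat markers differed between genotypes, with medians of -1.52 and 0.21. The part of this change in cell makeup in the 0.49 and 0.31 of the oxidative phosphorylation genes was not tested.

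Cox4i2, the form of subunit 4 made in lung, was the one restricted form past the 2-fold mark as higher in tumor, at low signal. It read 29.6 in Nrf2+/+ lung, 16.8 in Nrf2-/- lung, where it was not well above background, 51.3 in Nrf2+/+ tumor and 31.3 in Nrf2-/- tumor. Both tumor readings were above the lung reading of the same genotype, by 1.25 in Nrf2+/+ mice with a software error of 0.33, and at least 1.93-fold in Nrf2-/- mice. Here "at least" means against the lowest level that still counted as well above background on the array of Nrf2-/- lung, so its count as 2-fold higher in Nrf2-/- tumor used a reading below that level. Nrf2-/- mice had less, at least 1.40-fold in lung and by 0.79 on the log2 scale in tumor. Cox6b2, the testis form of subunit 6b, read 1489 and 1276 in Nrf2+/+ lung and tumor and 1970 and 1588 in Nrf2-/- lung and tumor. It differed by 0.23 and 0.03 between tissues, less than Cox6b1 at 0.74 and 0.57, and 3 of 6 testis markers were not well above background on any array.

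ATP synthase had 17 subunits, all higher in tumor in both genotypes relative to the 75th percentile. Its parts differed little from one another: in Nrf2+/+ mice the medians were 0.61 for the catalytic F1 head, 0.62 for the c-ring, 0.66 for the peripheral stalk and 0.70 for the other membrane subunits. Atp5mpl, a small membrane subunit, had signals of 5980 and 8540 in Nrf2+/+ lung and tumor and of 7289 and 8766 in Nrf2-/- lung and tumor, or 0.97 and 0.61. Atp5pb, subunit b of the stalk, had 19158 and 26707 in Nrf2+/+ and 21195 and 27742 in Nrf2-/- lung and tumor, or 0.93 and 0.73. In raw signal as well, both were higher in each tumor pool than in the lung of the same genotype. The largest difference in the F1 head of Nrf2-/- mice was 0.64, that of Atp5e. The c-ring is encoded by Atp5g1, Atp5g2 and Atp5g3, which give the same mature protein, and their differences were 0.62, 0.76 and 0.51 in Nrf2+/+ and 0.29, 0.40 and 0.10 in Nrf2-/- mice.

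Genes of the pathway outside the 93 were read from lists. Cyc1, cytochrome c1 of complex III, had signals of 15301 and 19160 in Nrf2+/+ lung and tumor and of 17246 and 18486 in Nrf2-/- lung and tumor (0.78 and 0.45), and somatic cytochrome c, Cycs, differed by 0.36 and 0.23. Of 30 further assembly factors and regulators on the array, 28 were measured, with medians of 0.32 and 0.15. None was at least 2-fold lower in tumor, beside 15.3% of all genes in Nrf2+/+ and 9.12% in Nrf2-/- mice. At least 2-fold higher were 2 in Nrf2+/+ tumor, beside 8.08% of all genes, and 1 in Nrf2-/- tumor, beside 5.43%. One was Atpif1, the inhibitor that stops ATP synthase from running backwards, with 46194 and 80201 in Nrf2+/+ lung and tumor and 49051 and 78067 in Nrf2-/- lung and tumor, or 1.25 and 1.02. Its differences exceeded the medians of 0.64 and 0.40 of the complex it acts on. The other was Timmdc1, a complex I assembly factor, with 109 and 210 in Nrf2+/+ but 58.4 and 53.4 in Nrf2-/- lung and tumor (1.39 and 0.22). None of the 13 subunit genes of mitochondrial DNA was matched on the array by the names searched.

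Of 20 regulators of mitochondrial biogenesis, 18 were measured, with medians of 0.33 and 0.07. In each genotype 1 was at least 2-fold lower, beside 15.3% of all genes in Nrf2+/+ and 9.12% in Nrf2-/- mice. That gene was Perm1, a muscle regulator, at 62.6 and 67.6 in Nrf2+/+ and Nrf2-/- lung and not well above background in either tumor (5.94 and 16.5). Esrra, the estrogen-related receptor that drives these genes, had 1152 and 1646 in Nrf2+/+ and 1456 and 1566 in Nrf2-/- lung and tumor, or 0.97 and 0.45. Ppargc1a, its coactivator, read 467 and 439 in Nrf2+/+ and 337 and 210 in Nrf2-/- lung and tumor, or 0.37 and -0.33, and was 1.14 lower in Nrf2-/- than in Nrf2+/+ tumor. Nrf1 itself differed by -0.43 and -0.35. Tfb1m, which methylates the RNA of the mitochondrial ribosome, was higher in Nrf2-/- mice, by 0.91 in lung and 0.57 in tumor. A list of 17 genes covered the citric acid cycle and pyruvate dehydrogenase with its kinases, with medians of 0.30 and 0.08. None was 2-fold higher in tumor, beside 8.08% of all genes in Nrf2+/+ and 5.43% in Nrf2-/- mice. Pdk4, which holds back pyruvate oxidation, was lower by 2.19 in Nrf2+/+ and by 0.42 in Nrf2-/- mice. Slc25a4, the ATP carrier of muscle and heart, differed by -0.16 and -0.24, and the general form Slc25a5 by 0.35 and 0.20.

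Of the 93 genes 20 had several probes. Over these the median range between a gene's probes was 0.20 for the tumor difference in Nrf2+/+ mice and 0.12 in Nrf2-/- mice. It exceeded 1 for Ndufa12 alone, whose probes gave -0.25 to 0.77 in Nrf2+/+ mice, and for Uqcrh in the lung genotype comparison. Ndufv3 (-0.01 to 0.71), Ndufab1 (0.49 to 1.11) and Ndufaf4 (-0.53 to 0.18) differed by over 0.5 in Nrf2+/+ mice. The other 73 genes had 1 probe.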

How the data were processed

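Per the labels' protocols, RNA pooled from 8 mice per group was labelled with Cy3 (500 ng) and hybridised to an Agilent mouse array (design 014868). Agilent Feature Extraction 10.7.3.1 read the arrays, per the file headers, and the deposited intensity of each spot is linear, background-subtracted and detrended. The submitters' value table equalled this processed signal within 0.5% on each array, so it is linear and uncentred, with column medians of 79.2, 70.0, 47.2 and 50.1; no normalization between arrays is stated.

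From these, log2 of the processed signal was taken relative to the 75th percentile of an array's non-control spots, spots of a probe were averaged, 4 of 41174 probes with outlier spots were left out, and a gene was represented by its probe with the highest mean level. Symbols came from RefSeq (GRCm38.p6) by accession for 26682 probes; 14492 stayed unnamed. Since the array was annotated on another build, the table gave only names, gene order and the promoter windows. Differences were counted at 2-fold among genes well above background on either array. limma 3.58.1 (R 4.3.3; prior degrees of freedom 2.18) fitted tissue plus genotype over 20553 genes, threshold 0.05, and was tested on simulated data. Slide could not be added to this fit, which would use up the last residual degree of freedom. Python 3.11.15, numpy 2.4.6, pandas 2.3.3 and matplotlib 3.10.9 did the rest.

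Genes named were the 3 markers, restricted forms with their partners, the c-ring copies, the 4 largest differences each way per comparison, members whose probes disagreed by over 1, and up to 4 examples per list; some others (Cox7b, Nrf1, Slc25a5, Cycs and the list examples beyond this) were chosen after their values were seen. The result for 1 gene is not reported here. The members and lists were chosen with earlier results of these data known. Alternatives were array median, quantile, spike-in scaling (probes with signal above 100 on every array, a cut chosen after seeing them), normexp (offset 50, on median spot signals, as the files lack mean signals), all probes averaged, genes well above background on all 4 arrays, a 1.5-fold mark, and the value table.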

Additional observations from a re-analysis of the deposited data

Results flagged for a closer look

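Ndufs8 differed between the genotypes in its tumor difference, which was -1.73 in Nrf2+/+ and 0.27 in Nrf2-/- mice, opposite in sign and 2.00 apart on the log2 scale. Uqcrb did so the other way, with 0.38 in Nrf2+/+ and -0.50 in Nrf2-/- mice, a difference of -0.88. With 1 array in each group neither difference of differences was tested, and each gene was read by 1 probe.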

How the results depend on the processing

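Of 1140 values under alternatives for 162 results, 1000 moved by less than the software error (counts: by less than 1.5 times), 140 moved further and 0 of those past the 2-fold mark changed sign. Some of the 1000 could not move: 162 came from the value table, and gaps within a comparison are fixed under scalings that shift whole arrays. The error is also coarse for medians: the lung genotype median of 0.18 became 0.32 with array medians and still counted as unmoved. Scaling mattered most. Against the 75th percentile the median of all genes moved in the tumor comparison by 0.29 in Nrf2+/+ and 0.14 in Nrf2-/- mice with array medians, by -0.20 and -0.26 with spike-ins and by 0.12 and 0.08 with normexp. The 2-fold calls over all genes, higher and lower, were 1608 and 3052 in Nrf2+/+ mice and became 2633 and 2146 (array medians), 1196 and 3857 (spike-ins) and 1117 and 1172 (normexp). In Nrf2-/- mice 1055 and 1772 became 1314 and 1417, 759 and 2687, and 727 and 526, and in the lung genotype comparison 614 and 931 became 797 and 749 with array medians.

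The median over the 93 genes was 0.79 with array medians in Nrf2+/+ and 0.040 with spike-ins in Nrf2-/- tumor, and its gap to all genes in Nrf2+/+ was 0.30 with quantile normalization. Quantile normalization gave Cox6a2 minus Cox6a1 as -0.17 in Nrf2+/+ and -0.78 in Nrf2-/- mice and Cox8b minus Cox8a as -2.78 and -1.71, and normexp gave the latter as -2.65 in Nrf2+/+ mice. Members 2-fold higher in Nrf2+/+ tumor, 1 as reported, were 14 with array medians, 2 with normexp, 0 among genes on all 4 arrays and 31 at a 1.5-fold mark. Of all 19913 genes 2633 were higher with array medians, 1117 with normexp and 3349 at 1.5-fold. Of the 16287 genes on all 4 arrays 1279 were higher. In Nrf2-/- tumor the 1 became 0 with spike-ins, normexp and the all-array filter and 5 at 1.5-fold, and the 2 lower became 1 with array medians. Of all 19426 genes 759 were higher with spike-ins, 727 with normexp and 2143 at 1.5-fold, and 1417 were lower with array medians. With the all-array filter 742 of 16287 were higher. For genotype in lung, the 0 higher became 1 with array medians, 1 with normexp and 2 at 1.5-fold, and the 0 lower became 1 with quantile normalization, 1 with normexp and 2 at 1.5-fold. Of all 20190 genes 797 were higher with array medians, 203 with normexp and 1415 at 1.5-fold. Lower were 810 with quantile normalization, 252 with normexp and 2051 at 1.5-fold. In tumor, the 1 higher became 2 and the 0 lower 3 at 1.5-fold, and spike-ins gave 1 lower. Of all 17824 genes 1642 were higher and 1415 lower at 1.5-fold, and 766 were lower with spike-ins. The limma tissue term called 0 members as reported, 2 with array medians (Cox4i2 and Cox8b), 3 with spike-ins (Cox7a1 added), 9 with normexp and 11 among genes on all 4 arrays. Of all 20553 genes it called 1076 higher and 1079 lower with array medians, 408 and 2035 with spike-ins, and 1478 and 1645 with normexp. Of the 16287 genes on all 4 arrays it called 1766 and 2086. The share of members called was below that of all genes under each of these alternatives. Except where a mark or filter sets the count, the cause was not tested.

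No paired analysis was possible because each group is 1 array and the labels number the arrays across groups, from replicate 1 to replicate 4. No array was left out in turn, each being a whole group. The number of arrays limits every comparison, and Cox4i2 and Ndufaf5 had little signal over background.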
